A study of Mus musculus with 6 samples.

Results

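The 9 genes described here are Pparg, Cebpa, Cebpb, Cebpd, Lpl, Fabp4, Plin2, Cd36 and Adipoq, which encode regulators of fat cell formation and proteins that handle stored lipid. They were taken by symbol from a table of 27734 genes, and all 9 were found. RNA was sequenced from rib chondrocytes, the cartilage-making cells, of E18.5 mouse embryos. The 3 mutant libraries came from a Jab1 knockout restricted to chondrocytes, labelled Jab1flox/flox; Col2a1-Cre, in which Cre recombinase is driven by the Col2a1 promoter, and the 3 wild-type libraries are labelled only as wild type. Whether wild-type embryos carried a floxed allele or Cre, and whether each library came from a separate embryo, is not given in the sources used here, and the p-values below therefore rest on variation among libraries that may be technical. The gene of Jab1 is Cops5, and its protein is the catalytic part of the COP9 signalosome, which takes Nedd8 off cullin ubiquitin ligases. The comparison asks what changes in chondrocytes that lose Jab1.

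Fat cell formation runs through a cascade of transcription factors. C/EBPβ and C/EBPδ act early after an adipogenic stimulus, and they induce PPARγ and C/EBPα, which then maintain each other and switch on genes for lipid uptake and storage. Chondrocytes and adipocytes arise from related mesenchymal progenitors, and PPARγ and C/EBP factors are also made outside fat, for example in macrophages and endothelial cells.

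Values are FPKM, that is, sequenced fragments scaled to gene length and to library size, so levels can be compared between genes. Libraries are named by the numbers of their columns, 0, 1 and 2 in each group. Cops5 measured 17.0, 18.0 and 17.2 FPKM in mutant columns 0, 1 and 2, against 42.3, 39.8 and 40.1 FPKM in wild-type columns 0, 1 and 2, and fell in every mutant library (log2 fold change -1.18, SE 0.0599, limma adjusted p = 6.5e-04). Whole-gene values do not isolate the floxed exons. Columns held 571180 to 631534 FPKM in total. Libraries also differed in sex-linked genes. The Y-linked gene Ddx3y measured 7.78, 46.1 and 36.0 FPKM in mutant columns, against 0.157, 0.0281 and 0.450 FPKM in wild-type columns, and Xist, the RNA of the inactive X chromosome, 37.3, 0.0176 and 0.0244 FPKM against 63.1, 64.6 and 65.9 FPKM. Genotype and sex of the embryos thus cannot be told apart here, and mutant column 0 stood between the other mutant libraries and wild type for both genes. Titles give day 30 of a month for wild-type column 0 and day 24 for the other libraries. In markers of the labelled cell type all mutant and wild-type libraries were high, with 8 chondrocyte genes summing to 7907, 4674 and 4489 FPKM in mutant columns 0, 1 and 2, against 6693, 7828 and 6574 FPKM in wild-type columns. Of these 8, Comp, a protein of the cartilage matrix, fell to 547, 499.8 and 476 FPKM in mutant columns, against 785, 852 and 765 FPKM in wild-type columns (log2 fold change -0.66, limma adjusted p = 0.024), and the other 7 did not pass.

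Among the 8 tested genes 4 rose in mutant chondrocytes, the other 4 did not pass, and none fell. Pparg and Cebpa, the regulators at the centre of the adipogenic cascade, were each about as far above wild type as the other, at ratios of group means of 2.48 and 2.45. Cebpd and Lpl rose by less. Fabp4, Plin2, Cd36 and Cebpb did not pass, and Adipoq was close to 0 in all 6 libraries and was below the filter on low values. Rising means here an adjusted p under 0.05 in a limma model over every gene averaging 1 FPKM or more, with a log2 fold change above 0 on the scale log2(FPKM + 1), mutant minus wild type. By that rule 6.07% of the 14012 genes tested changed, 3.48% rising and 2.59% falling, and 24.7% had an unadjusted p under 0.05. The median log2 fold change was 0.63 over the 8 tested genes, beside -0.00390 over all tested genes.

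The stretches of DNA before the starts of Pparg and C/EBP genes are shown because Pparg and Cebpa moved together, while Cebpb did not pass. Each is the 250 bases before an annotated start in GRCm38.p6, from RefSeq, written 5′ to 3′ on the gene's strand. RefSeq windows were found for 6 of the 9 genes, with 3 for Pparg and none for Cebpd, Fabp4 and Lpl. Capitals mark letters of a C/EBP core, searched as TTGCNNAA on both strands, or of a nuclear receptor site of PPARs, searched as AGGTCA on both strands. None of the 3 windows printed here lies in an exon of its own gene. Of the Pparg windows not printed, that at start 115361144 has 193 bases in Pparg exons, and that at start 115362349 has 57.
Pparg, internal start (chr6:115421816-115422065, + strand): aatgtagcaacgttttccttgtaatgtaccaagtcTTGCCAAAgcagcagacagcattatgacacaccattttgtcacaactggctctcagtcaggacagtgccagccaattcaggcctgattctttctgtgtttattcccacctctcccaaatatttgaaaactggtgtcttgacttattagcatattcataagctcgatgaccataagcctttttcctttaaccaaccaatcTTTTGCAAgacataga
Cebpa (chr7:35119043-35119292, + strand): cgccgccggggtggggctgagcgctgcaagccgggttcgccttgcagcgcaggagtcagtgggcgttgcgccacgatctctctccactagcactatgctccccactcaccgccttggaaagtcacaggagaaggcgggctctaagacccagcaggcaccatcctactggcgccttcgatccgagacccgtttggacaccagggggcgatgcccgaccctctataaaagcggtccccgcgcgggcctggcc
Cebpb (chr2:167688665-167688914, + strand): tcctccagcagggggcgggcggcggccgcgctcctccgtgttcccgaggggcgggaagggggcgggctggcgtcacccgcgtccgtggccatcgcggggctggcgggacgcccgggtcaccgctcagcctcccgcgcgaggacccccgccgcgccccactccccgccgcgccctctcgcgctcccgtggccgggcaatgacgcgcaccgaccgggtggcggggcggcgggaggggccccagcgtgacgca

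The internal Pparg start opens the transcript Pparg-201 of GENCODE, and its window held 2 matches to the C/EBP core. They lay 215 to 208 and 16 to 9 bases before the start. Of 32851 windows of the same length, 9.56% held at least 1 such match. The other Pparg windows, at starts 115361144 and 115362349 on chromosome 6, each held 1 AGGTCA site, which 14.0% of all windows held. The windows of Plin2 and Cd36, genes that did not pass, also held 1 such site each. The windows of Cebpa and Cebpb held no match to either searched pattern, and sites that depart from these letters were not searched. The direct repeat of AGGTCA with 1 base between the copies was searched on both strands. None of the 8 windows found for 6 of the 9 genes held it, beside 0.0335% of all windows. GC content was 40.8% in the internal Pparg window, 66.4% in that of Cebpa and 81.6% in that of Cebpb, beside a median of 52.4% over all windows. These matches describe letters only, since binding was not measured, and the deposited values do not separate the starts of Pparg.

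**Figure D1:**
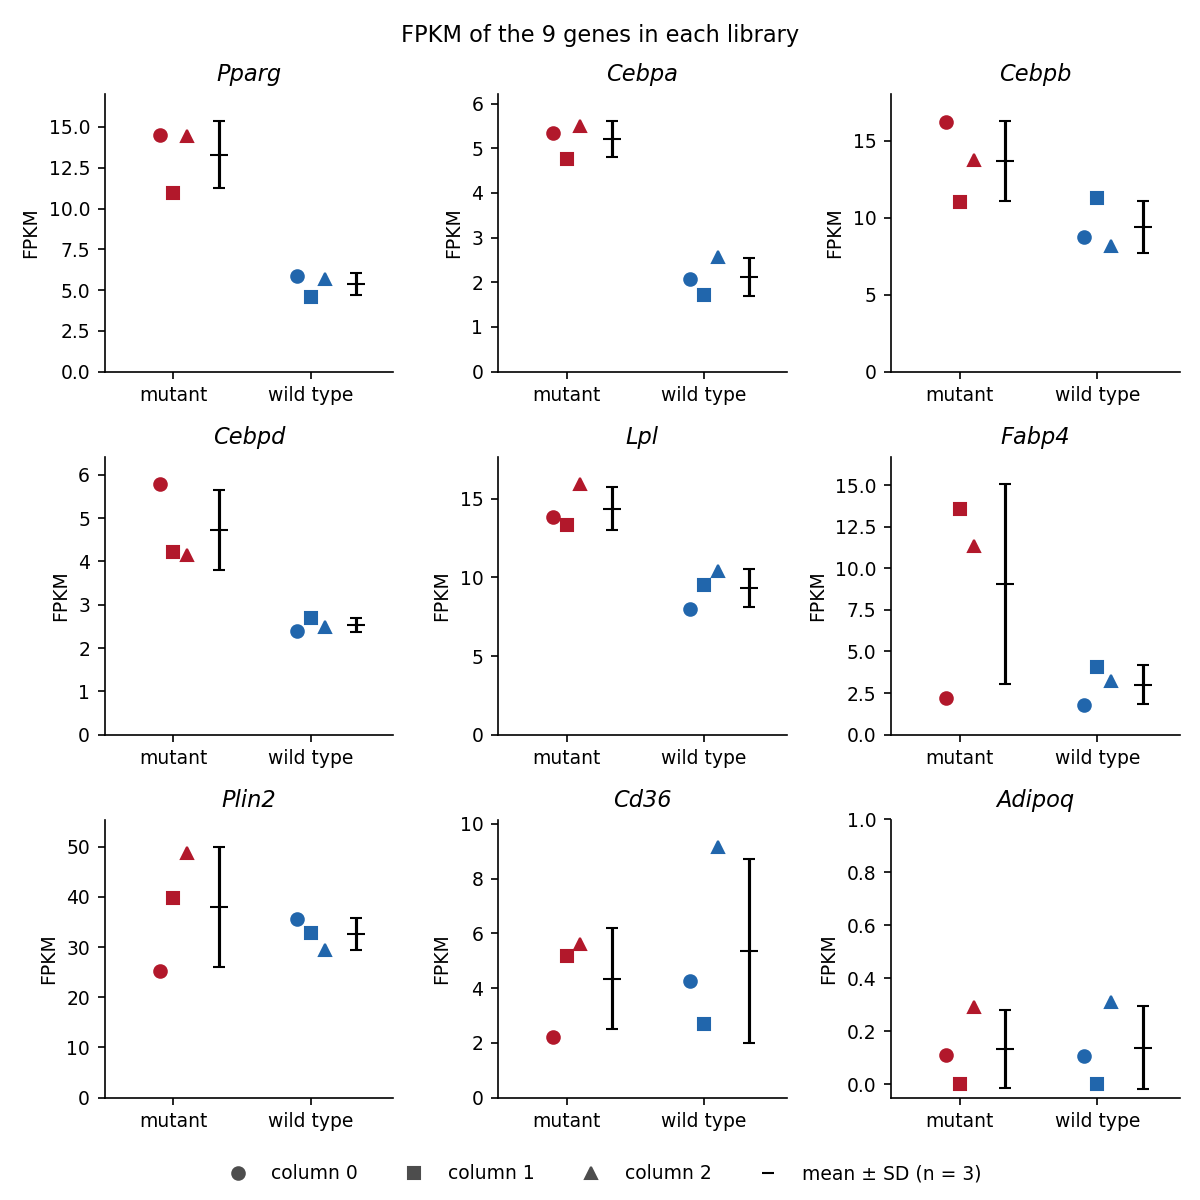
FPKM of the 9 genes in the 3 mutant (red) and 3 wild-type (blue) libraries, with marker shapes for column numbers and black bars for mean ± SD. For Pparg, Cebpa, Cebpd and Lpl every mutant library lies above every wild-type library, while mutant column 0 lies apart from mutant columns 1 and 2 for Fabp4.

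Pparg encodes PPARγ, the nuclear receptor that directs fat cell formation, and lies on chromosome 6 from 115360951 to 115490399 on the + strand (mm10). It measured 14.5, 10.9 and 14.4 FPKM in mutant columns 0, 1 and 2, against 5.84, 4.59 and 5.65 FPKM in wild-type columns 0, 1 and 2. The lowest mutant library was thus above the highest wild-type library. The means were 13.3 ± 2.04 FPKM in mutant and 5.36 ± 0.673 FPKM in wild-type libraries (SD, n = 3 each), and the log2 fold change was 1.16 (SE 0.139, 95% interval 0.82 to 1.51, limma adjusted p = 0.015). Averaged over the 6 libraries, Pparg was expressed above 50.9% of all tested genes.

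Cebpa encodes C/EBPα, which sustains PPARγ in fat cells and also acts in liver and in granulocyte precursors. The gene lies on chromosome 7 from 35119293 to 35121928 on the + strand. Its values were 5.35, 4.75 and 5.51 FPKM in mutant columns 0, 1 and 2, against 2.08, 1.72 and 2.56 FPKM in wild-type columns. The groups did not overlap, and mutant column 1 was the lowest mutant library for both Pparg and Cebpa. Means of 5.20 ± 0.399 FPKM in mutant and 2.12 ± 0.421 FPKM in wild-type libraries put the log2 fold change at 0.997 (SE 0.126, 95% interval 0.68 to 1.31, limma adjusted p = 0.017). Its start overlaps Gm45091, a noncoding gene on the opposite strand, which measured 1.98, 3.57 and 3.02 FPKM in mutant columns, against 1.64, 1.23 and 2.73 FPKM in wild-type columns, and did not pass (limma adjusted p = 0.34). Libraries were stranded, but whether counting used the strand is not given in the sources used here, so reads of such a pair cannot be told apart.

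Pparg lost its call without mutant column 2 (limma adjusted p = 0.0631) or wild-type column 0, 1 or 2 (adjusted p = 0.0573, 0.0533 and 0.0600) and when Y-linked expression was a covariate (adjusted p = 0.13), while its log2 fold change stayed between 1.07 and 1.49 in every alternative run. Cebpa lost its call, among other settings, without mutant column 1 or 2 (limma adjusted p = 0.05001 and 0.0777) or wild-type column 0 or 1 (adjusted p = 0.07235 and 0.0533) and with the Y-linked covariate (adjusted p = 0.20), with log2 fold changes from 0.90 to 1.27 over the alternatives.

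Cebpd encodes C/EBPδ, which acts with C/EBPβ early in adipogenesis and responds to inflammatory signals. It lies on chromosome 16 from 15887286 to 15891031 on the + strand and overlaps Spidr on the opposite strand. Cebpd measured 5.78, 4.23 and 4.14 FPKM in mutant columns 0, 1 and 2, against 2.39, 2.70 and 2.48 FPKM in wild-type columns. The groups did not overlap, and mutant column 0 was the highest. The mean was 4.71 ± 0.922 FPKM in mutant and 2.52 ± 0.159 FPKM in wild-type libraries (log2 fold change 0.69, SE 0.133, limma adjusted p = 0.044). Spidr, a DNA repair scaffold, averaged 5.80 ± 0.649 FPKM in mutant and 7.68 ± 1.08 FPKM in wild-type libraries and did not pass (limma adjusted p = 0.16).

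Cebpb encodes C/EBPβ, whose messenger RNA is known to give several proteins by alternative translation starts, which FPKM do not separate. It lies on chromosome 2 from 167688915 to 167690418 on the + strand. It measured 16.2, 11.0 and 13.8 FPKM in mutant columns 0, 1 and 2, against 8.74, 11.3 and 8.15 FPKM in wild-type columns. The groups overlapped, because mutant column 1 lay below wild-type column 1. The log2 fold change of 0.49 (SE 0.173, 95% interval 0.07 to 0.92) did not pass (limma adjusted p = 0.16). Tmem189, a gene on the opposite strand that overlaps the 5′ part of Cebpb, averaged 14.7 ± 1.86 FPKM in mutant and 14.1 ± 1.11 FPKM in wild-type libraries.

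Lpl encodes lipoprotein lipase, the enzyme that releases fatty acids from circulating triglyceride and a target of PPARγ. It lies on chromosome 8 from 68880491 to 68907448 on the + strand. It measured 13.8, 13.3 and 15.9 FPKM in mutant columns 0, 1 and 2, against 8.001, 9.55 and 10.4 FPKM in wild-type columns. All mutant libraries were above all wild-type libraries. Means of 14.4 ± 1.37 FPKM in mutant and 9.32 ± 1.22 FPKM in wild-type libraries put the log2 fold change at 0.58 (SE 0.116, limma adjusted p = 0.047). With Pparg, Cebpa and Cebpd it made 4 of 8 tested genes with every mutant library higher, beside 16.3% of all tested genes. None of the 8 had every mutant library lower, beside 15.9% of all tested genes.

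Cebpd and Lpl lay close to the threshold. Cebpd passed only without mutant column 0 among the fits with a library left out (limma adjusted p = 0.04465; 0.0906 and 0.1015 without mutant columns 1 and 2, and 0.1344, 0.1192 and 0.1398 without wild-type columns 0, 1 and 2), and Lpl in none of them (limma adjusted p = 0.0794, 0.0968 and 0.1337 without mutant columns 0, 1 and 2, and 0.1156, 0.130 and 0.0998 without wild-type columns 0, 1 and 2). Among other settings, with the Y-linked covariate the limma adjusted p was 0.0655 for Cebpd, where the log2 fold change was 1.30, and 0.46 for Lpl, and without the filter on low values it was 0.0900 for Cebpd and 0.0774 for Lpl.

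**Figure D2:**
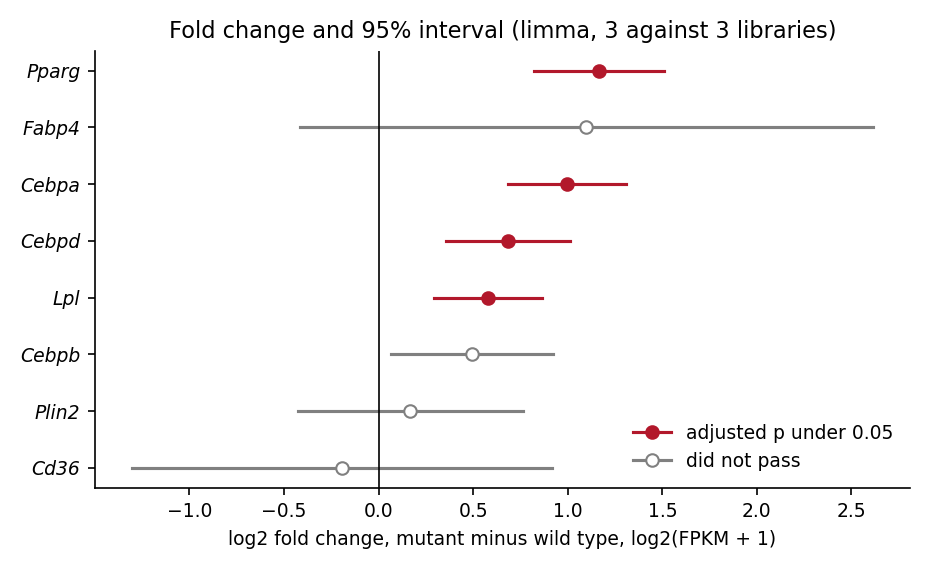
Log2 fold change, mutant minus wild type, of the 8 tested genes on the log2(FPKM + 1) scale, with 95% intervals from limma and filled points for genes with an adjusted p under 0.05. The intervals of Pparg, Cebpa, Cebpd and Lpl lie above 0, as does that of Cebpb (0.07 to 0.92), which did not pass. That of Fabp4 runs from -0.42 to 2.61.

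Fabp4, Plin2 and Cd36 varied among mutant libraries as much as between the groups. Fabp4 encodes the fatty acid binding protein of adipocytes, which is also made by endothelial cells and macrophages, and lies on chromosome 3 from 10204088 to 10208576 on the - strand. It measured 2.20, 13.5 and 11.4 FPKM in mutant columns 0, 1 and 2, against 1.77, 4.06 and 3.20 FPKM in wild-type columns. Mutant column 0 was inside the wild-type range and mutant columns 1 and 2 were above it. The log2 fold change of 1.10 (SE 0.615, 95% interval -0.42 to 2.61) did not pass (limma adjusted p = 0.33). Without mutant column 0 it was 1.79 and passed (limma adjusted p = 0.0420). With the Y-linked covariate, which nearly followed genotype, the log2 fold change turned to -2.17 (limma adjusted p = 0.18).

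Endothelial markers were likewise lowest in column 0 among mutant libraries, as were the macrophage, adipocyte, erythroid and fibroblast sums given below. The 10 endothelial markers summed to 5.01, 20.4 and 21.4 FPKM in mutant columns 0, 1 and 2, against 8.38, 12.1 and 10.7 FPKM in wild-type columns. Of these, 4 were tested and none passed, and none was at 0 in any library. Pecam1, the adhesion molecule CD31, measured 0.475, 3.38 and 3.37 FPKM in mutant columns, against 1.12, 1.73 and 1.68 FPKM in wild-type columns. Gpihbp1, which anchors lipoprotein lipase to capillary endothelium, was listed at 0 in mutant column 0 and at 4.24 and 2.59 FPKM in mutant columns 1 and 2, against 0, 0.654 and 1.40 FPKM in wild-type columns. Their part in the Fabp4 values was not tested. In bulk RNA, more cells of a type and more RNA per cell cannot be told apart.

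**Figure D3:**
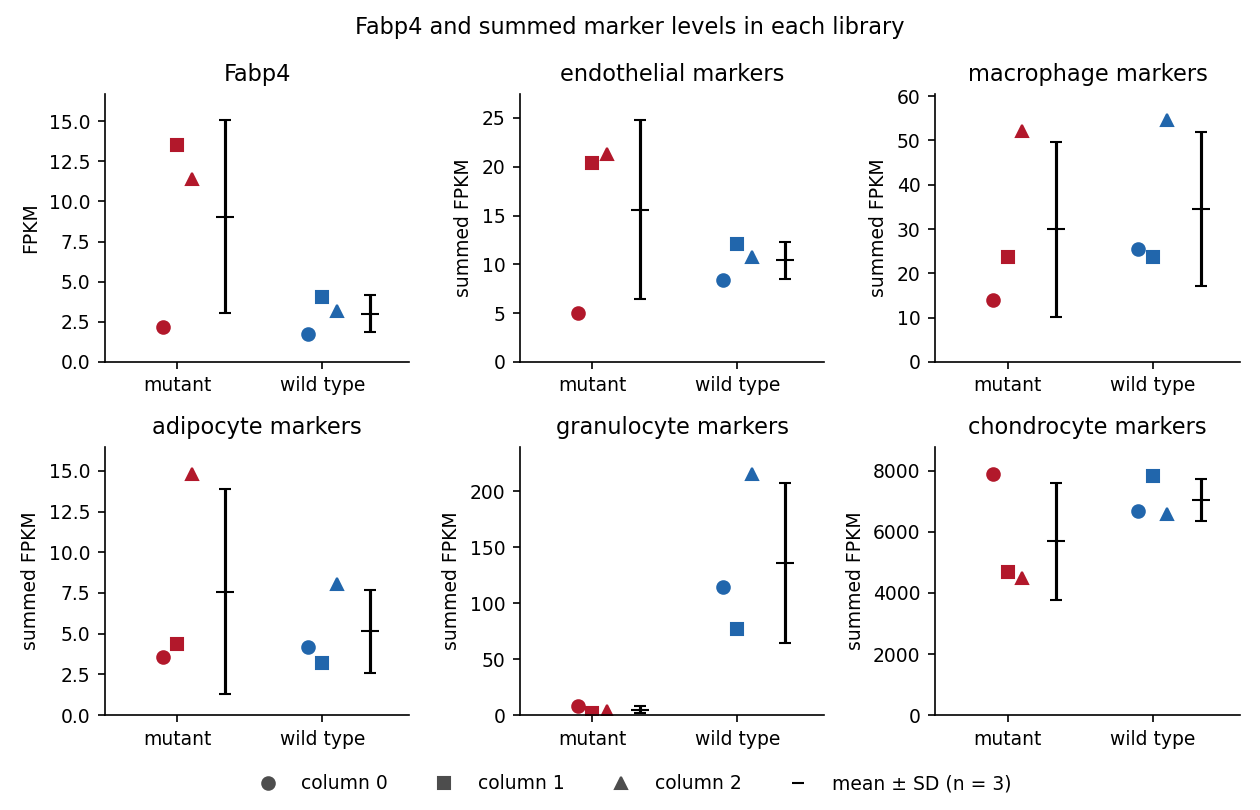
FPKM of Fabp4 and summed FPKM of 5 marker lists by library, mutant in red and wild type in blue, with marker shapes for column numbers and black bars for mean ± SD (n = 3). Fabp4 and the endothelial sum are both lowest of the mutant libraries in column 0, at 2.20 and 5.01 FPKM, as are the macrophage and adipocyte sums. Granulocyte sums are 2.36 to 8.61 FPKM in mutant against 77.1 to 216 FPKM in wild-type libraries.

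Plin2 encodes perilipin 2, a coat protein of lipid droplets found in most cell types, and was the highest of the 9 genes in both groups. It lies on chromosome 4 from 86648386 to 86670060 on the - strand. It measured 25.2, 39.8 and 48.8 FPKM in mutant columns 0, 1 and 2, against 35.6, 32.7 and 29.4 FPKM in wild-type columns. Mutant column 0 was below all wild-type libraries and mutant columns 1 and 2 above them. The log2 fold change was 0.17 (SE 0.242, 95% interval -0.43 to 0.76, limma adjusted p = 0.71).

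Cd36 encodes a fatty acid translocase and scavenger receptor of fat cells, macrophages and capillary endothelium, and lies on chromosome 5 from 17781690 to 17888801 on the - strand. It measured 2.23, 5.17 and 5.62 FPKM in mutant columns 0, 1 and 2, against 4.24, 2.71 and 9.14 FPKM in wild-type columns. The highest and the second lowest values were both in wild type. The log2 fold change was -0.19 (SE 0.451, 95% interval -1.30 to 0.92, limma adjusted p = 0.83). The 10 macrophage markers summed to 14.0, 23.7 and 52.0 FPKM in mutant columns, against 25.4, 23.8 and 54.5 FPKM in wild-type columns, with 7 tested, none passing and none at 0 in any library. In each group the macrophage sum and Cd36 were both highest in column 2, and the part of macrophages in these values was not tested.

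Adipoq encodes adiponectin, a hormone made almost only by mature fat cells, and lies on chromosome 16 from 23146536 to 23158028 on the + strand. It was listed at 0.109, 0 and 0.292 FPKM in mutant columns 0, 1 and 2, against 0.106, 0 and 0.310 FPKM in wild-type columns. It was not tested, and no fold change is given. Lipe, the hormone-sensitive lipase, measured 0.864, 0.910 and 1.03 FPKM in mutant columns 0, 1 and 2, against 0.9499, 0.944 and 1.08 FPKM in wild-type columns, and its mean was also under 1 FPKM. Plin1, the perilipin of adipocyte droplets, was at most 0.155 FPKM in mutant and 0.0626 FPKM in wild-type libraries. Leptin (Lep) was listed at 0.0263 FPKM in mutant column 2 and at 0 in the other 5 libraries. The 10 adipocyte markers summed to 3.57, 4.36 and 14.8 FPKM in mutant columns, against 4.19, 3.21 and 8.05 FPKM in wild-type columns. Most of that was Car3, carbonic anhydrase 3, which is also a skeletal muscle enzyme, at 2.21, 3.24 and 13.2 FPKM in mutant columns, against 3.09, 2.18 and 6.39 FPKM in wild-type columns. Of the 10 markers 7 were at 0 in at least 1 library, and only Car3 was tested.

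In the order of their levels the 9 genes ran from Plin2 to Adipoq in both groups. In mutant libraries Plin2, at a mean of 38.0 FPKM, stood clear of the next gene, Lpl, and ranges overlapped between all further neighbours down to Cd36, at 4.34 FPKM. In wild-type libraries Plin2, at 32.6 FPKM, stood clear of Cebpb, and Pparg at 5.36 FPKM stood clear of Fabp4 at 3.01 FPKM. Adipoq lay apart at the bottom in both groups. Pparg had rank 4 in mutant and rank 5 in wild-type libraries by mean. Over the 6 libraries the log2 levels of Pparg and Cebpa had a Pearson r of 0.98, those of Pparg and Cebpd 0.92 and those of Pparg and Lpl 0.90. For Pparg the values were 0.78 with Cebpb, 0.45 with Fabp4, 0.23 with Plin2 and -0.15 with Cd36. These are descriptions over 6 libraries that share the genotype difference. The coefficient of variation among mutant libraries was 7.66% for Cebpa, 9.55% for Lpl and 15.4% for Pparg, and 66.6% for Fabp4, 42.4% for Cd36 and 31.4% for Plin2.

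Granulocyte and erythroid markers were much lower in mutant libraries. The 10 granulocyte markers summed to 8.61, 2.36 and 3.85 FPKM in mutant columns 0, 1 and 2, against 115, 77.1 and 216 FPKM in wild-type columns, with 3 of 5 tested members falling and none listed at 0 in all libraries. The 9 erythroid genes summed to 15.05, 49.6 and 23.0 FPKM in mutant columns, against 196, 221 and 201 FPKM in wild-type columns, with all 5 tested members falling. The groups of neither sum overlapped, and both sums were lower in the mutant group, in which Pparg and Cebpa were higher. Within each group this did not hold for both sums. Column 1, the lowest for Cebpa in each group, had the lowest granulocyte sum and the highest erythroid sum. Skeletal muscle markers summed to 54.4 to 81.2 FPKM in mutant and 151 to 176 FPKM in wild-type libraries, with 1 of 7 tested members falling. Fibroblast and perichondrium markers summed to 804 to 1333 FPKM in mutant and 1347 to 1462 FPKM in wild-type libraries, with 2 of 7 tested members falling. The part of these cells in the values of the 9 genes was not tested.

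Beyond the 9 genes, 12 lists of related genes were counted, of which 1 list holds the 9 genes themselves. Over the other 11 lists, leaving out the 9 genes, 126 of 173 genes in the table were tested, 9 rose, 4 fell and 113 did not pass, beside 3.48% rising and 2.59% falling over all tested genes. Their median log2 fold change was 0.02. In droplet proteins, triglyceride synthesis and lipid uptake, genes that rose stood beside genes that fell. Leaving out mutant columns 0, 1 and 2 in turn gave 4, 3 and 1 rising and 5, 0 and 1 falling genes, and leaving out wild-type columns 0, 1 and 2 gave 0, 0 and 1 rising and 0, 0 and 1 falling genes. With the Y-linked covariate 7 rose and 1 fell, none of which passed without it.

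Among the partners of PPARγ none of 10 tested genes passed in limma. Rxra, its dimer partner RXRα, averaged 16.3 ± 1.46 FPKM in mutant and 13.6 ± 1.22 FPKM in wild-type libraries (limma adjusted p = 0.19). The corepressor gene Ncor1 averaged 30.3 ± 3.72 FPKM in mutant and 28.0 ± 1.66 FPKM in wild-type libraries and was the highest of the list. Ppargc1a, the coactivator PGC-1α, measured 1.77, 1.07 and 1.51 FPKM in mutant columns 0, 1 and 2, against 0.422, 0.409 and 0.417 FPKM in wild-type columns. It was higher in every mutant library but its mean over all libraries was under 1 FPKM, so it was not tested.

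Of 17 tested regulators that favour adipogenesis 2 rose and none fell. Lmo4, a LIM-only cofactor, averaged 84.1 ± 9.36 FPKM in mutant and 52.7 ± 5.52 FPKM in wild-type libraries (limma adjusted p = 0.036). Klf9, a Krüppel-like factor that responds to glucocorticoids, averaged 13.5 ± 0.854 FPKM in mutant and 9.57 ± 0.833 FPKM in wild-type libraries (limma adjusted p = 0.042). Nr3c1, the glucocorticoid receptor, averaged 37.3 ± 6.31 FPKM in mutant and 47.8 ± 1.38 FPKM in wild-type libraries without passing (limma adjusted p = 0.15). The list median was 0.31, with medians of 0.50, 0.14 and 0.09 in mutant columns 0, 1 and 2 against the wild-type mean.

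Of 16 tested regulators that oppose adipogenesis 1 rose and none fell. Sirt1, the deacetylase that represses PPARγ target genes, averaged 11.4 ± 0.557 FPKM in mutant and 7.45 ± 0.963 FPKM in wild-type libraries (limma adjusted p = 0.038). Dlk1, the preadipocyte factor that holds cells back from becoming adipocytes, was the highest of these lists' regulators. It measured 476, 492 and 513 FPKM in mutant columns 0, 1 and 2, against 529, 722 and 518 FPKM in wild-type columns (log2 fold change -0.24, 95% interval -0.61 to 0.13, limma adjusted p = 0.38). Among 8 tested genes linked to C/EBP factors and the acute phase 1 rose, Trib2, a pseudokinase that promotes degradation of C/EBPα, at 18.7 ± 0.807 FPKM in mutant and 13.1 ± 0.307 FPKM in wild-type libraries (limma adjusted p = 0.017).

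**Figure D4:**
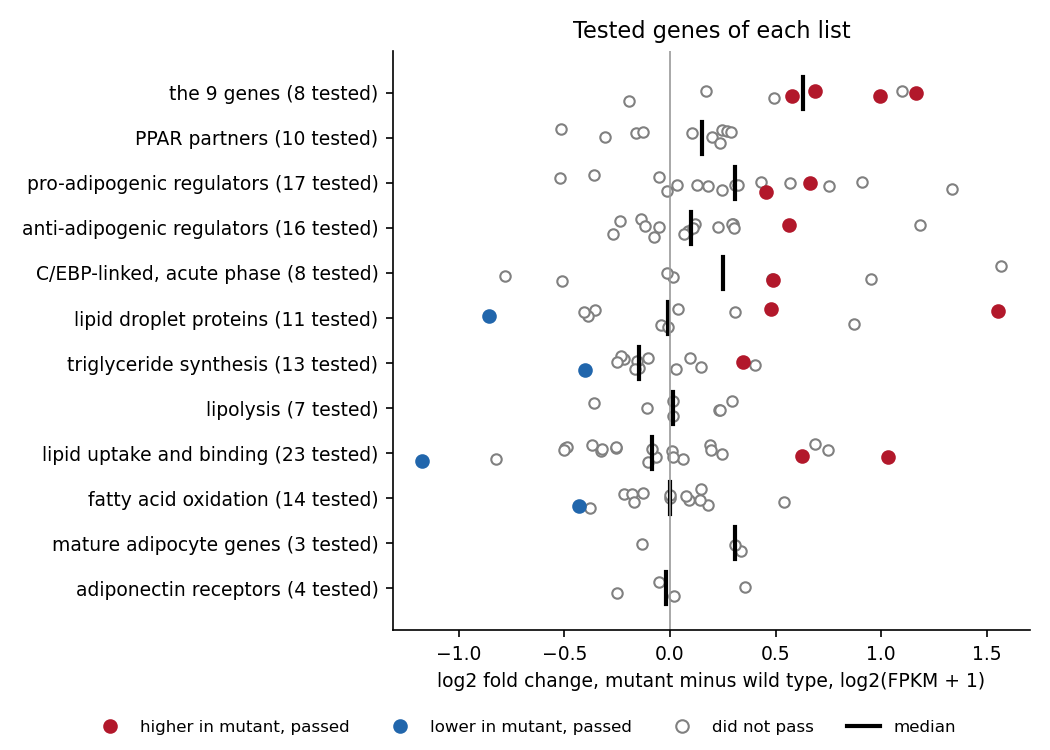
Log2 fold change, mutant minus wild type, of every tested gene of the 12 lists, with red for genes that rose, blue for genes that fell, open circles for genes that did not pass and black bars for medians. Medians run from -0.15 for triglyceride synthesis to 0.63 for the 9 genes.

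Of 11 tested lipid droplet proteins 2 rose and 1 fell. Cidea, a droplet protein that promotes droplet enlargement and is known from brown fat, had the largest log2 fold change among those that passed in these lists. It measured 12.7, 7.13 and 8.02 FPKM in mutant columns 0, 1 and 2, against 2.65, 1.85 and 2.82 FPKM in wild-type columns (log2 fold change 1.55, SE 0.228, limma adjusted p = 0.024). Its groups did not overlap, and it passed in 2 of the 6 fits with a library left out (limma adjusted p from 0.02875 to 0.08494). Hsd17b11, a droplet-bound dehydrogenase, averaged 4.19 ± 0.199 FPKM in mutant and 2.72 ± 0.176 FPKM in wild-type libraries (limma adjusted p = 0.036). G0s2, the inhibitor of adipose triglyceride lipase, fell and measured 54.3, 55.2 and 55.5 FPKM in mutant columns, against 121, 104 and 79.96 FPKM in wild-type columns (log2 fold change -0.86, limma adjusted p = 0.038). The lipase itself, Pnpla2, averaged 1.54 ± 0.351 FPKM in mutant and 1.15 ± 0.170 FPKM in wild-type libraries, and none of 7 tested lipolysis genes passed in limma.

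In triglyceride synthesis 1 of 13 tested genes rose and 1 fell. Agpat3, an acyltransferase, averaged 15.5 ± 0.722 FPKM in mutant and 12.0 ± 0.445 FPKM in wild-type libraries (limma adjusted p = 0.042). Gpam, the mitochondrial enzyme of the opening step, averaged 6.72 ± 0.561 FPKM in mutant and 9.19 ± 0.489 FPKM in wild-type libraries (limma adjusted p = 0.049). Gpam passed in 5 of 18 alternatives, none of them a fit with a library left out, and lost its call after median-of-ratios scaling (limma adjusted p = 0.05475), quantile normalization (adjusted p = 0.05701) and with a robust prior (adjusted p = 0.05184). Lmo4, Klf9, Sirt1, Hsd17b11 and Slc25a20 also passed in no fit with a library left out (limma adjusted p from 0.05522 to 0.14). Of the 6 such fits, G0s2, Agpat3 and Fabp7 passed in 1, Trib2 and Acsl6 in 2 and Acsl5 in 3. Dgat1 and Dgat2, which make triglyceride from diacylglycerol, averaged 10.5 ± 1.76 and 11.1 ± 2.17 FPKM in mutant libraries, against 9.74 ± 0.819 and 13.5 ± 3.43 FPKM in wild-type libraries, without passing.

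Of 23 tested genes of lipid uptake and binding 2 rose and 1 fell. Of 5 tested acyl-CoA synthetases of the Acsl family, which activate fatty acids, 1 rose, 1 fell and 3 did not pass. Acsl5 rose and averaged 17.0 ± 1.03 FPKM in mutant and 10.7 ± 0.950 FPKM in wild-type libraries (limma adjusted p = 0.021), while Acsl6 fell and averaged 1.20 ± 0.279 FPKM in mutant and 3.95 ± 0.519 FPKM in wild-type libraries (limma adjusted p = 0.017). Fabp7, the fatty acid binding protein of brain, rose to 8.75 ± 2.48 FPKM in mutant, against 3.66 ± 0.271 FPKM in wild-type libraries (limma adjusted p = 0.044). Angptl4, a PPAR target that inhibits lipoprotein lipase, measured 1.25, 2.29 and 3.87 FPKM in mutant columns 0, 1 and 2, against 1.85, 2.87 and 2.20 FPKM in wild-type columns (limma adjusted p = 0.99). In fatty acid oxidation 1 of 14 tested genes fell, Slc25a20, the carrier of acylcarnitines into mitochondria, at 6.55 ± 0.453 FPKM in mutant and 9.17 ± 0.425 FPKM in wild-type libraries (limma adjusted p = 0.035). Of the 4 tested genes of the adiponectin receptor list and the 3 of the mature adipocyte list none passed in limma, and the receptor gene Adipor1 averaged 67.4 ± 1.55 FPKM in mutant and 66.5 ± 1.08 FPKM in wild-type libraries.

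**Figure D5:**
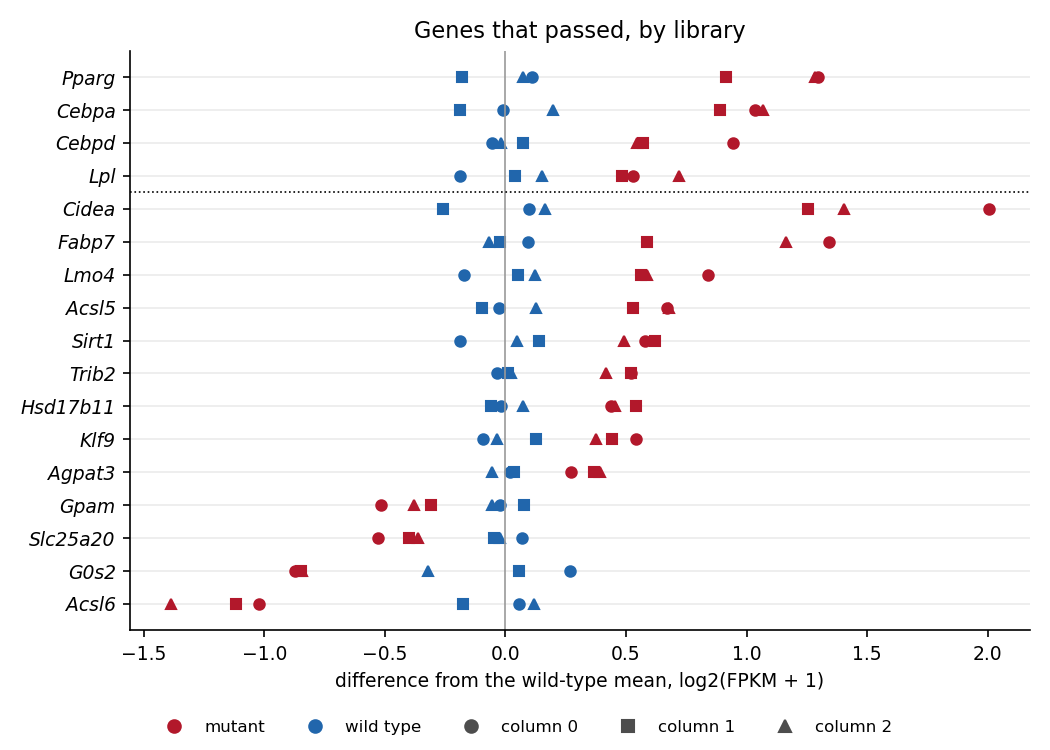
Difference of each library from the wild-type mean on the log2(FPKM + 1) scale for Pparg, Cebpa, Cebpd and Lpl (above the dotted line) and the 13 genes of the other lists that passed, with mutant libraries in red, wild-type libraries in blue and shapes for column numbers. Every one of these 17 genes has its mutant libraries on 1 side of all wild-type libraries, which follows largely from picking them by this same comparison. Among all tested genes 16.3% had every mutant library higher and 15.9% every mutant library lower. Cidea is at the top of the 13 and Acsl6 at the bottom.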

How the data were processed

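The authors deposited 1 table of FPKM for 27734 genes and 6 libraries. STAR, Cufflinks, Cuffdiff and the build mm10 are named in the submitters' processing notes; versions, strand setting and any scaling between libraries are not given in the sources used here. Reads were single-end and 50 bases long, per the labels' protocols. Columns were assigned by name, 4 to a sample and 2 to their group only. FPKM are not counts, so the depth behind each value is unknown. Low values in wild-type column 0 fell on steps 0.977 to 1.38 times those of the other libraries, which gives only relative depth. GENCODE M21 gave loci and gene types for 27578 genes, and its name replaced 27 symbols that had become numbers.

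log2(FPKM + 1) of genes averaging 1 FPKM or more was fitted by genotype with limma 3.58.1 in R 4.3.3 (trend, two-sided, Benjamini-Hochberg over 14012 genes), a model tested on simulated data. An exact permutation test of 3 against 3 cannot give a p under 0.1. The 9 genes and all lists were chosen with earlier results of these data known, and the motifs with the sequences in view. Named genes are the 9 genes, Cops5, passing list members (at most 6 a list), the 2 highest, and the 3 genes closest in pattern to each; others were chosen after their values were seen, and some under the rule are left out.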

Additional observations from a re-analysis of the deposited data

How the results depend on the processing

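The model was rerun unfiltered, with genes averaging 5 FPKM or more, with pseudocounts of 0.1 and 0.5, after quantile normalization or scaling by the median of ratios, with library weights, a robust prior, each library left out, a replicate block, a Y-linked covariate, protein-coding genes only, and no genes at 0 in a whole group. With a library left out, all genes called numbered 174 to 666 (850 with all), the 9 genes gave 0 to 4 rising (4 with all) and 0 falling, and the 11 other lists gave 0 to 4 rising (9 with all) and 0 to 5 falling (4 with all). Without the filter the counts were 461 genes, 2 of the 9 rising, and 3 rising and 1 falling in the lists. At a minimum mean of 5 FPKM, 2 of the 9 rose, since Cebpa and Cebpd were then not tested. Library weights gave 1488 genes and protein-coding genes only 1373, each with 10 falling in the lists. The Y-linked covariate, which nearly followed genotype and so cannot separate sex from it, left 236 genes, 0 of the 9 rising and 1 falling in the lists. The cause of these shifts was not tested. The direction of the log2 fold change turned for Fabp4 (-2.17) and Plin2 (-1.01) with the Y-linked covariate, for Plin2 without mutant column 2 (-0.0340), and for Cd36 without mutant column 0 (0.14) or wild-type column 2 (0.21), none of them passing. With a library left out Plin2 ran from -0.0340 to 0.43 and Cd36 from -0.52 to 0.21. The labels do not say that column numbers pair libraries. Deviations of same-numbered libraries from their group means correlated at -0.0328, -0.0421 and -0.0226, and with a replicate block on these numbers 60 genes passed, with 1 of the 9 rising (Pparg) and 0 rising and 0 falling in the lists. Adjusted p under the block was 0.0396 for Pparg, 0.0778 for Cebpa, 0.1613 for Cebpd and 0.1217 for Lpl (limma).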

Other observations

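Several inducible regulators of these lists were far higher in mutant column 0 than in the other 5 libraries. Egr2, an immediate-early zinc finger factor, measured 10.2, 0.734 and 0.443 FPKM in mutant columns 0, 1 and 2, against 0.185, 0.154 and 0.280 FPKM in wild-type columns (limma adjusted p = 0.36). Klf4 measured 29.1, 12.6 and 13.1 FPKM in mutant columns, against 6.10, 10.8 and 9.39 FPKM in wild-type columns (limma adjusted p = 0.20). Trib1, a pseudokinase like Trib2, measured 35.6, 9.15 and 9.95 FPKM against 3.26, 6.05 and 4.21 FPKM in the same order, and Socs3, a feedback inhibitor of cytokine signalling, 24.4, 7.51 and 7.60 FPKM against 5.39, 5.90 and 4.79 FPKM. Cebpd and Cebpb were also highest in that library. These genes were chosen after their values were seen.

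Among 10808 named genes, those closest to Pparg in their pattern over the 6 libraries were Umps (Pearson r of 0.997), Cpt1c and Cers5 (both 0.996). Cpt1c measured 14.8, 11.2 and 14.8 FPKM in mutant columns 0, 1 and 2, against 7.41, 6.11 and 6.66 FPKM in wild-type columns. Closest to Cebpa were Abcb1b and Acsl5 (both 0.998) and Frmd8os (0.997). Abcb1b measured 6.13, 5.08 and 6.70 FPKM in mutant columns, against 1.38, 0.948 and 1.72 FPKM in wild-type columns. Closest to Fabp4 were Nmt2 (0.993), Olfml3 (0.991) and Trmt5 (0.990), and Olfml3 measured 5.70, 12.5 and 12.0 FPKM in mutant columns, against 5.85, 7.50 and 7.46 FPKM in wild-type columns. Closest to Lpl were Mcm4 (0.999), Ei24 and Pdgfc, and closest to Cebpd were Fhl2 (0.9997), Mertk and Tango6. These are descriptions over 6 libraries.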
